A study of Mus musculus with 9 samples.

Results

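The core pluripotency transcription factors described here are 10 genes, taken by name from the gene column of the count tables: Pou5f1, Nanog, Sox2, Klf4, Klf2, Esrrb, Tfcp2l1, Prdm14, Zfp42 and Sall4. All 10 were found among 53819 rows. They were read in RNA of mouse embryos at the morula stage, the compacted ball of cells that precedes the blastocyst. All were C57BL/6J embryos made by in vitro fertilization, which differed in the alcohol treatment of the sire before conception: 6% EtOH (called 6% ethanol here), 10% EtOH (10% ethanol) or Control, with 3 libraries each. In vitro fertilization in CARD media was common to the 3 groups. The labels name neither the number of embryos or sires behind a library nor the age of the sires, so each p-value reflects library-to-library spread alone, and that spread can be partly technical. The comparison asks whether alcohol taken by the father changes gene expression in the early embryo.

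These factors hold cells of the early embryo in a state from which all tissues of the body can form. POU5F1 (OCT4) and SOX2 bind DNA together at joined octamer and SOX elements and, with NANOG, activate each other's genes. A second layer, with KLF4, KLF2, ESRRB and TFCP2L1, carries the signals of the leukaemia inhibitory factor (LIF) and WNT pathways to this core in mouse embryonic stem cells, and PRDM14, ZFP42 (REX1) and SALL4 act beside it. In the mouse many of these transcripts are present before the inner cell mass and the trophectoderm, the outer layer that forms the placenta, separate.

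The joined element can be seen in the promoter of Nanog. RefSeq promoter windows (build GRCm38.p6, 250 bases before a start to 50 after it) were found for 8 of the 10 genes, in 11 windows because Pou5f1, Nanog and Esrrb have 2 starts each. Windows are from a build other than that of the counts and were matched by symbol. Both strands were searched for the octamer core TTTGCAT and the SOX cores ACAAAG and ACAATG. The octamer core stood in the windows of Nanog (both starts, which overlap and share it), Sox2 and Zfp42, and in 4.63 percent of 32851 windows of all genes. An octamer core and a SOX core within 10 bases of each other stood only in the windows of Nanog among the 8 genes, and in 0.283 percent of all windows. The 250 bases before the start of these 3 genes are shown because they hold the octamer core, with every searched core in capitals, KLF cores (GGGTGTG and GGGCGGG) included. The intervals are chr6:122707239-122707488 (plus strand) for Nanog, chr3:34649745-34649994 (plus) for Sox2 and chr8:43307010-43307259 (minus) for Zfp42.
Nanog: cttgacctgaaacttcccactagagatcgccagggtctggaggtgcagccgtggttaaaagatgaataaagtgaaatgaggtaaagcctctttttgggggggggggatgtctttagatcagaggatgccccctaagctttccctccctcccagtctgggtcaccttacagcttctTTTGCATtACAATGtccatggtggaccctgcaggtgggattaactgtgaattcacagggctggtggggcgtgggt
Sox2: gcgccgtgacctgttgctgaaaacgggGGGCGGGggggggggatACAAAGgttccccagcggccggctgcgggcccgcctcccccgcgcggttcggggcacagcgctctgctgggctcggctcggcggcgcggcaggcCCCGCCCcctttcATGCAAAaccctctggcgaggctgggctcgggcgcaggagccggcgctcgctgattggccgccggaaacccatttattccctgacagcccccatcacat
Zfp42: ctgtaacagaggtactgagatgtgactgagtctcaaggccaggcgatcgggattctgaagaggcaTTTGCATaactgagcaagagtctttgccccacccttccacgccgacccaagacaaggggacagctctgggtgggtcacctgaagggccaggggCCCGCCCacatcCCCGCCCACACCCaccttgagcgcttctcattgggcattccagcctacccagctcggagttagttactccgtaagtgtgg
In Nanog the pair ran from 75 to 62 bases before the first start, with the octamer core ahead of ACAATG. The Sox2 octamer core lay on the opposite strand, overlapped by no other core. In Zfp42 a GGGTGTG and a GGGCGGG core on the opposite strand overlapped. The ESRRB core AAGGTCA was found in 4.72 percent of all windows and in none of the 11. Such matches describe letters and say nothing of binding.

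The libraries held 6263465 to 27619281 counts. Values below are CPM, counts scaled to a common library total after TMM correction of library sizes, and a group is given as mean ± SD with n = 3. The deposited count column carried a long header that names RNA STAR in 4 libraries (6% ethanol 1, 10% ethanol 1, 10% ethanol 2 and control 2) and a short header without it in 5, and the long-header libraries were the deeper ones. Of the tested genes, up to 13.5 percent stood at 0 counts in a library, the highest share being that of 6% ethanol 2. Sums over marker lists are given as CPM of full library totals, without the TMM correction. Markers of cells from outside the embryo were low: the summed level of 10 cumulus and granulosa markers was at most 5.89 CPM, with Has2, Ptx3 and Fshr at 0 in every library, and that of 6 sperm markers at most 2.93 CPM, with Prm2, Tnp1, Tnp2 and Odf1 at 0. The sums of 6 blood and 6 fibroblast markers were at most 3.99 and 10.6 CPM. That of 10 oocyte markers was 45.6 and 39.5 CPM in 10% ethanol 1 and 3, and at most 18.6 CPM in the other libraries. The 14 trophectoderm and primitive endoderm genes summed to between 1159 CPM (10% ethanol 3) and 2599 CPM (control 2). In such bulk RNA, fewer cells of a type and less RNA per cell cannot be told apart.

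Reads were spread unevenly over the factors. Sall4, a zinc finger factor needed for the proliferation of the inner cell mass, and Tfcp2l1, a target of LIF signalling, together took between 73.6 and 82.5 percent of the counts of the 10 factors in each library, without correction for length. Sox2 and Prdm14 had few reads and were at 0 in some libraries.

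Levels of different genes can be compared only per transcript length, here CPM per kilobase of the longest transcript in GENCODE M21. On that scale Sall4 was first in 9 of 9 libraries, with 103 ± 24.1 at 6% ethanol, 147 ± 21.9 at 10% ethanol and 114 ± 72.1 in controls. Tfcp2l1 followed at place 2 or 3 in every library. The next places changed from library to library: Nanog held places 2 to 7 and lay above its neighbour Pou5f1 in 4 of 9 libraries. Pou5f1 lay above Zfp42 in 8 of 9, Zfp42 above Klf2 and Klf2 above Esrrb in 6 of 9 each, and Esrrb above Klf4 in 5 of 9. The ranges of neighbours from Tfcp2l1 down to Klf4 overlapped and their order was reversed in at least 1 library. Overlap of ranges does not show that 2 genes are equal within libraries, and a difference between neighbours was not tested. The lowest Klf4 value, 3.33 CPM per kilobase, still exceeded the highest Sox2 value, 3.04. With the median length of the coding transcripts instead, Sall4 kept the first place in each library while Klf4 held places 2 to 7, so the middle order also depends on the length used.

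**Figure D1:**
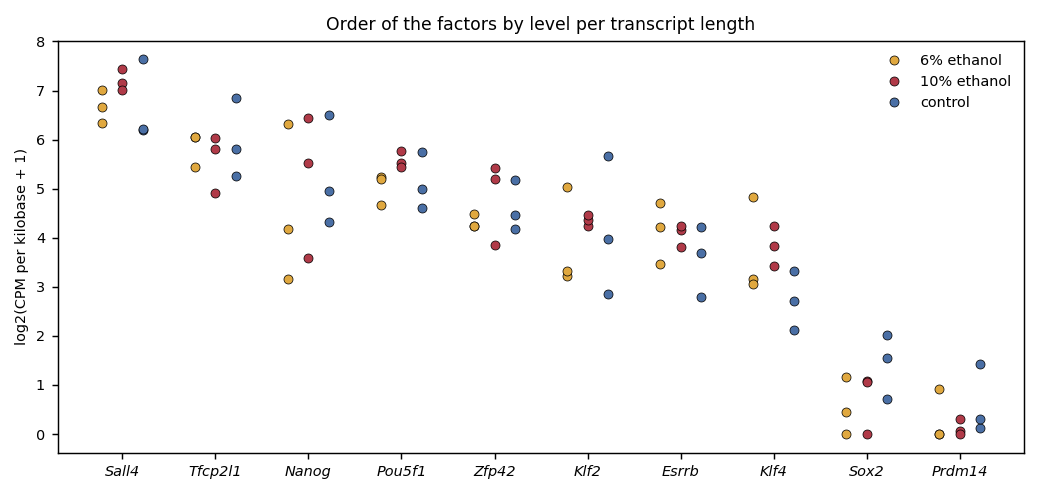
Level of each factor per transcript length, as log2(CPM per kilobase + 1), with 1 point per library and genes ordered by their mean over 9 libraries. Sall4 is first in each library, neighbouring genes from Sall4 to Klf4 overlap in range, and Sox2 and Prdm14 lie below the others.

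None of the factors passed the test for sire treatment. edgeR's quasi-likelihood test with Benjamini-Hochberg adjustment called 0 of 9 tested factors in each of the comparisons, 6% ethanol against control, 10% ethanol against control, and 10% against 6% ethanol, where it called 0 percent of all 12488 tested genes. Prdm14 did not pass the filter on low counts and was not tested. At an unadjusted p under 0.05 there were 0 of 9 factors in each comparison, against 6.24, 2.14 and 5.33 percent of all genes in that order. DESeq2 called 62 (0.456 percent), 24 (0.145 percent) and 63 (0.464 percent) genes. These shares are of the 13586, 16553 and 13586 genes to which it gave an adjusted p. Limma voom with quality weights called 0 of 12488 genes in each comparison, and neither tool called a factor.

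**Figure D2:**
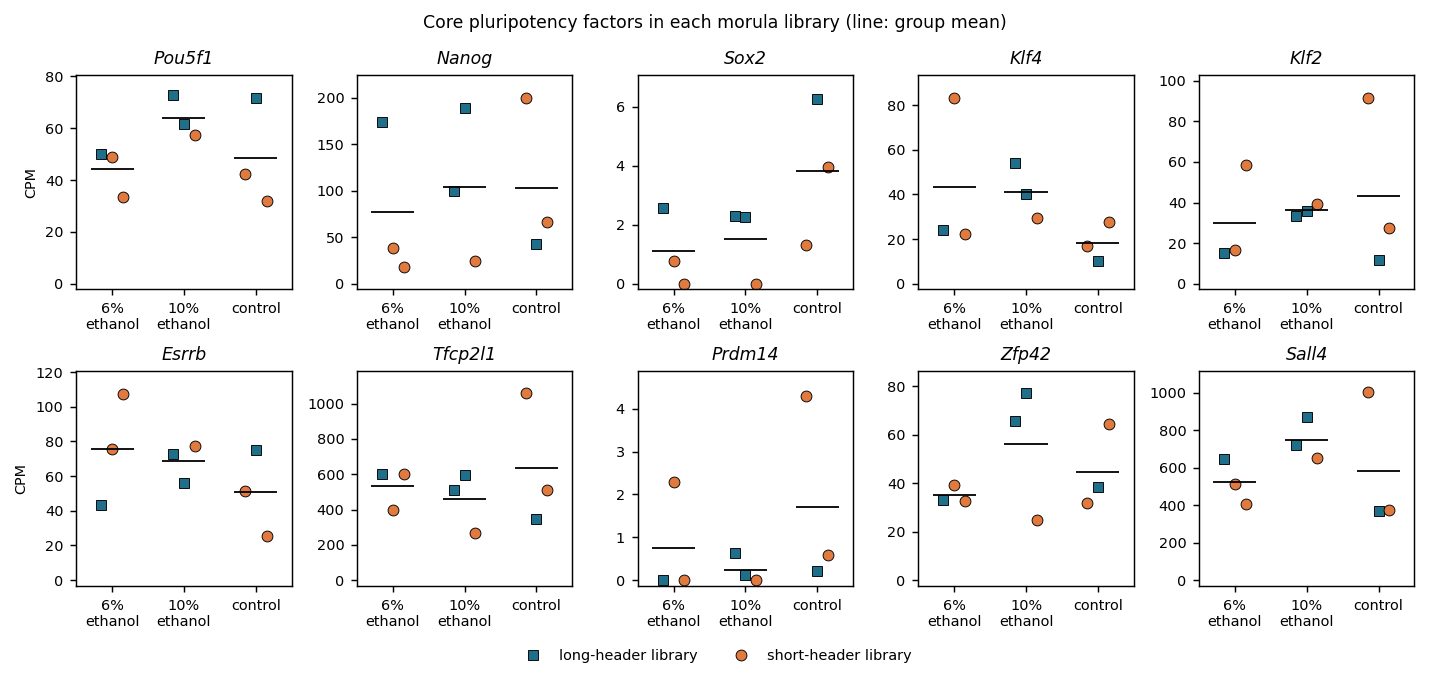
CPM of each factor in each library (points) with the group mean (line), for 6% ethanol, 10% ethanol and control, squares for long-header and circles for short-header libraries. Points of the groups overlap for every factor except Klf4 between 10% ethanol and control, and Pou5f1 and Sall4 between 10% and 6% ethanol.

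Of the partners at the joined element, Pou5f1 was among the steadiest of the tested genes that average 10 CPM or more. It had 50.1, 48.9 and 33.3 CPM at 6% ethanol, 72.7, 61.6 and 57.5 CPM at 10% ethanol, and 42.3, 71.6 and 31.9 CPM in controls. The 10% libraries all lay above the 6% libraries, and both overlapped the controls. Its log2 fold change was -0.14 ± 0.54 (SE) for 6% ethanol and 0.39 ± 0.54 for 10% ethanol against control, with adjusted p of 0.971 and 0.9999 by edgeR, and 0.54 ± 0.54 between the doses (0.844). The SD of its log2(CPM + 1) over the libraries, 0.43, was larger than that of only 6.65 percent of those 7115 genes. A low spread was not particular to Pou5f1: of the 8 factors at that level, 6 had an SD below the median of those genes, 0.87. Counts on 6 rows named Pou5f1-rs, listed apart, came to 4 over all libraries.

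Sox2, whose protein shares the element with POU5F1, had counts of 61, 4 and 0 at 6% ethanol, 44, 62 and 0 at 10% ethanol, and 16, 174 and 27 in controls. As CPM these were 2.58, 0.761 and 0 at 6% ethanol, 2.29, 2.26 and 0 at 10% ethanol, and 1.30, 6.26 and 3.95 in controls. The pair of libraries without a read, 6% ethanol 3 and 10% ethanol 3, had short headers, and 3 counts would correspond to 0.329 and 0.340 CPM there, so that a level below this cannot be told from 0. For Sox2 the log2 fold change was -1.75 ± 1.73 for 6% ethanol (95% interval -5.51 to 2.004) and -1.32 ± 1.70 for 10% ethanol (-5.02 to 2.38) against control, and such fits with counts of 0 depend on the prior count. The adjusted p was 0.879 and 0.9999 by edgeR. Sox2ot, the transcript in whose intron Sox2 lies, had 0 counts in every library.

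Nanog, the homeobox factor that marks the later epiblast, varied most among the 8 factors at a mean of 10 CPM or more. It had 174, 38.0 and 17.7 CPM at 6% ethanol, 99.4, 189 and 24.5 CPM at 10% ethanol, and 199, 42.2 and 66.5 CPM in controls. The highest library of each group, at 174, 189 and 199 CPM, stood far above its lowest, at 17.7, 24.5 and 42.2 CPM, and the highest value of all was 11.3 times the lowest. The group means, 76.5 ± 84.9, 104 ± 82.3 and 103 ± 84.4 CPM for 6% ethanol, 10% ethanol and control, lay well within this spread. Nanog had a log2 fold change of -0.42 ± 0.91 for 6% ethanol (adjusted p = 0.947 by edgeR) and 0.02 ± 0.91 for 10% ethanol (0.9999) against control. The intervals, -2.40 to 1.56 and -1.95 to 1.998, leave room for changes of either sign. Its SD on the log2 scale, 1.29, exceeded that of 80.6 percent of the genes at 10 CPM or more. The 2 Nanog pseudogene rows held 11 counts in all.

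Set within a library, where scaling plays no part, Nanog and Pou5f1 counts stood in either order. The ratio of Nanog to Pou5f1 counts was 3.47, 0.778 and 0.530 at 6% ethanol, 1.37, 3.06 and 0.426 at 10% ethanol, and 4.71, 0.589 and 2.09 in controls. It was above 1 in 5 libraries and below 1 in 4, and every group held both kinds. These counts are not corrected for length, so a ratio of 1 does not mark equal levels. Per kilobase of the longest transcript, Nanog lay above Pou5f1 in 4 of 9 libraries. In 10% ethanol 1 it then lay below, at 45.0 against 53.4. Within the long-header libraries the ratio of counts was 3.47 at 6% ethanol, 1.37 and 3.06 at 10% ethanol and 0.589 in control 2. In the short-header libraries it was 0.778 and 0.530 at 6% ethanol, 0.426 at 10% ethanol, and 4.71 and 2.09 in controls. The order of ethanol and control libraries was thus opposite in the 2 header forms.

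Transcripts of the 2-cell stage, at which the embryonic genome is activated, were read in the same libraries. The short-header ethanol libraries, in which Nanog and Sox2 were lowest, held some, but 6% ethanol 2 and 3 mostly those of 1 gene, Zfp352. Of the 8 markers listed for that stage, 7 were in the files, and none was at 0 in all libraries. Their summed level, as CPM of full library totals, was 0.132, 84.0 and 18.9 CPM at 6% ethanol, 3.27, 1.45 and 454 CPM at 10% ethanol, and 22.3, 7.05 and 0.440 CPM in controls. After TMM correction, Zfp352 had 85.8 and 18.9 CPM in 6% ethanol 2 and 3. At 201 CPM it was also the highest of the 7 in 10% ethanol 3. Zscan4c had 0.761 and 0.329 CPM in 6% ethanol 2 and 3, 5.12 CPM in control 1 and 72.0 CPM in 10% ethanol 3. Zscan4f, Tcstv1 and Usp17la were likewise higher in control 1 than in 6% ethanol 2 and 3. Zscan4d and Tcstv3 were higher in 6% ethanol 2, at 7.61 and 5.13 CPM, than in control 1, at 3.41 and 0.976 CPM. Control 1 had a summed level of 22.3 CPM and the highest Nanog value, so high sums and low Nanog did not go together in every library. The part of stage in the values of Nanog and Sox2 was not tested. Without 10% ethanol 3 the log2 fold change of 10% ethanol against control was 0.50 for Nanog and -0.74 for Sox2.

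**Figure D3:**
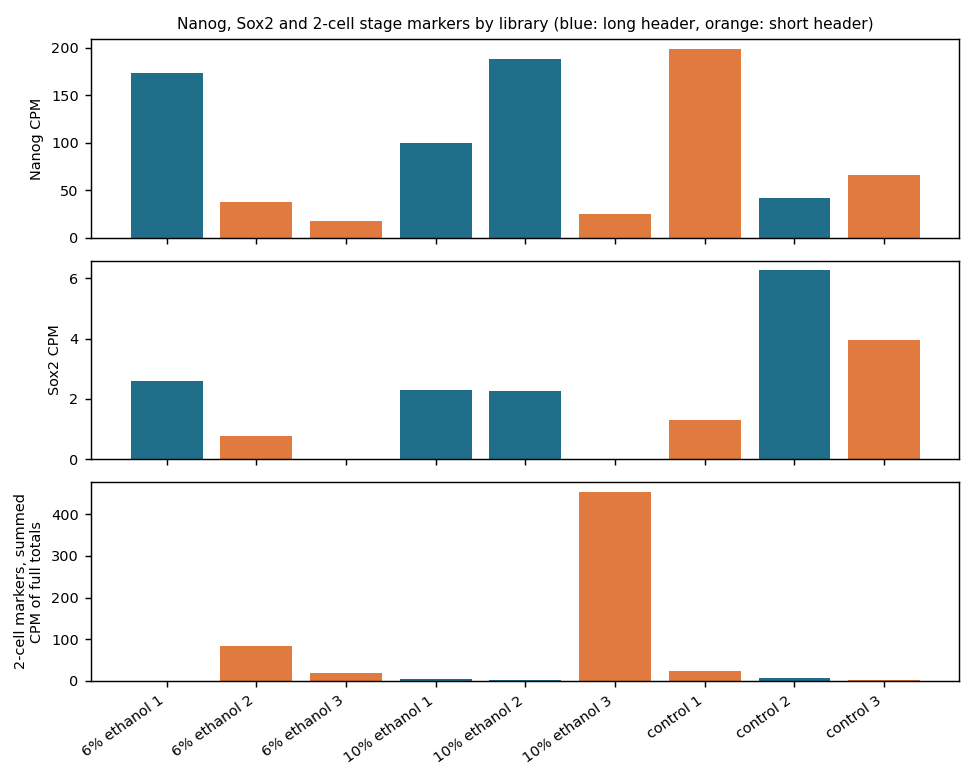
Nanog and Sox2 (CPM) and the summed level of 7 markers (CPM of full library totals) of the 2-cell stage in each library, blue for long-header and orange for short-header libraries. 6% ethanol 2 and 3 and 10% ethanol 3 have low Nanog and Sox2 bars, and 10% ethanol 3 has the highest marker sum, 454 CPM.

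Klf4, one of the original reprogramming factors and a zinc finger protein of the KLF family, had the log2 fold changes farthest from 0 against control, at both doses, among the factors at 10 CPM or more. It had 24.1, 83.1 and 22.3 CPM at 6% ethanol, 54.2, 40.0 and 29.6 CPM at 10% ethanol, and 16.9, 10.1 and 27.5 CPM in controls. The 10% libraries all lay above the controls, the lowest at 29.6 against 27.5 CPM, and the 6% libraries overlapped them. Fitted log2 fold changes were 1.25 ± 0.72 for 6% ethanol (95% interval -0.31 to 2.81, adjusted p = 0.822 by edgeR) and 1.19 ± 0.72 for 10% ethanol (-0.37 to 2.74, 0.9999) against control. Klf4 was the only factor without overlap between 10% ethanol and control, 1 of 9 tested, where 4.40 percent of all tested genes were higher without overlap. In either direction 0 of 9 factors lay without overlap for 6% ethanol against control (8.10 percent of all genes, 3.38 higher and 4.72 lower). It was 1 of 9 for 10% ethanol against control (8.07 percent in either direction, 3.67 percent lower) and 2 of 9 for 10% against 6% ethanol (9.67 percent in either direction, 3.62 percent lower).

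The mean of Klf4 was higher at both doses than in controls within each header form, with 1 or 2 libraries a group. Among long-header libraries it had 24.1 CPM at 6% ethanol, 54.2 and 40.0 CPM at 10% ethanol and 10.1 CPM in control 2. Among short-header libraries it had 83.1 and 22.3 CPM at 6% ethanol, 29.6 CPM at 10% ethanol, and 16.9 and 27.5 CPM in controls. The mean at 6% ethanol rested on 1 library: without 6% ethanol 2 the log2 fold change was 0.36. Against control the value stayed above 0 for both doses without each library of the compared groups in turn. It lay between 0.36 and 1.61 at 6% ethanol and between 0.91 and 1.61 at 10% ethanol. Leaving out a library of the dose not compared can hardly move the value and bears little on its sign. The 2 comparisons share the control libraries and are not independent.

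Klf2, the family member that can replace Klf4 in embryonic stem cells, overlapped between the groups. It had 15.3, 16.5 and 58.4 CPM at 6% ethanol, 33.3, 35.9 and 39.1 CPM at 10% ethanol, and 91.5, 11.5 and 27.3 CPM in controls. The 10% libraries were close together and lay inside the range of the controls. Klf2 had a log2 fold change of -0.53 ± 0.81 for 6% ethanol (adjusted p = 0.919 by edgeR) and -0.27 ± 0.81 for 10% ethanol (0.9999) against control. Without control 1, the highest library, it was 0.63 and 0.91, on the same side of 0 as Klf4. The difference between Klf2 and Klf4 was not tested. The number of Klf2 counts for each Klf4 count was 0.634, 0.199 and 2.63 at 6% ethanol, 0.613, 0.897 and 1.32 at 10% ethanol, and 5.41, 1.14 and 0.995 in controls. Control 1 gave the highest of these ratios and 6% ethanol 2 the lowest, and the groups overlapped.

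Esrrb and Tfcp2l1 are among the factors through which the WNT and LIF pathways act on the network. Esrrb, an orphan nuclear receptor, had 43.2, 75.5 and 108 CPM at 6% ethanol, 72.6, 56.1 and 77.2 CPM at 10% ethanol, and 51.2, 75.2 and 25.4 CPM in controls. The groups overlapped, and the lowest value was that of control 3. Its log2 fold change was 0.57 ± 0.57 for 6% ethanol (adjusted p = 0.880 by edgeR) and 0.44 ± 0.57 for 10% ethanol (0.9999) against control. Tfcp2l1 had 604, 395 and 604 CPM at 6% ethanol, 513, 594 and 269 CPM at 10% ethanol, and 1058.5, 346 and 508 CPM in controls. The fold changes of Tfcp2l1 lay below 0, at -0.26 ± 0.50 for 6% ethanol and -0.48 ± 0.50 for 10% ethanol, and rested on control 1, without which they were 0.32 and 0.12. The number of Tfcp2l1 counts for each Esrrb count was 14.0, 5.23 and 5.61 at 6% ethanol, 7.06, 10.6 and 3.48 at 10% ethanol, and 20.7, 4.60 and 20.0 in controls. Control 1 and control 3 gave the 2 highest ratios.

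Sall4 and Zfp42 stood higher in mean at 10% than at 6% ethanol. Sall4 had 649, 511 and 405 CPM at 6% ethanol, 721, 869 and 652 CPM at 10% ethanol, and 1002, 366 and 371 CPM in controls. The 10% libraries lay above the 6% libraries by a narrow margin, 652 against 649 CPM, and the controls spanned both. The log2 fold change between the doses was 0.52 ± 0.47 (95% interval -0.50 to 1.54, adjusted p = 0.827 by edgeR). Sall4 and Pou5f1 were the 2 of 9 tested factors higher at 10% than at 6% ethanol without overlap, where 6.05 percent of all tested genes were. Zfp42, better known as REX1, a marker of the undifferentiated state, had 32.9, 39.4 and 32.8 CPM at 6% ethanol, 65.7, 77.2 and 24.8 CPM at 10% ethanol, and 31.6, 38.5 and 64.2 CPM in controls. Its 6% libraries were close together, while the 10% group held both the highest and the lowest value. The log2 fold change of Zfp42 between the doses was 0.67 ± 0.60 (adjusted p = 0.825), and -0.53 in short-header libraries alone.

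Prdm14, the PR-domain factor of naive cells and the germ line, had counts of 0, 12 and 0 at 6% ethanol, 12, 3 and 0 at 10% ethanol, and 53, 6 and 4 in controls. That is 4.31 CPM in control 1 and at most 2.28 CPM elsewhere. In the libraries at 0, 3 counts would correspond to 0.127 CPM (6% ethanol 1), 0.329 CPM (6% ethanol 3) and 0.340 CPM (10% ethanol 3). Only control 1 and 6% ethanol 2 exceeded 1 CPM, and the groups overlapped. The zeros included a library of 22746245 counts (6% ethanol 1), while control 1 held 11026334 counts.

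**Figure D4:**
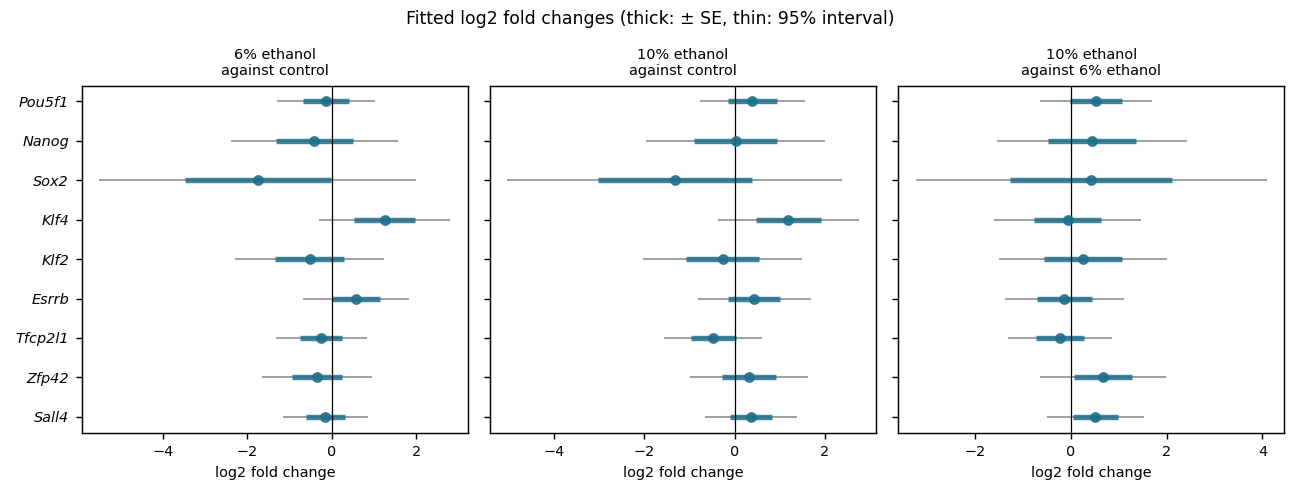
Fitted log2 fold changes of the 9 tested factors in the comparisons 6% ethanol against control, 10% ethanol against control and 10% against 6% ethanol, with SE (thick) and 95% interval (thin). Every interval includes 0, and the widest is that of Sox2.

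Of the 9 tested factors 2 had a log2 fold change above 0 and 7 below 0 for 6% ethanol against control, where 49.5 percent of all genes lay above and 50.5 percent below. For 10% ethanol against control 6 lay above and 3 below (47.1 and 52.9 percent of all genes), and for 10% against 6% ethanol 6 above and 3 below (49.5 and 50.5 percent). Their medians were -0.26, 0.32 and 0.43, where the medians of all tested genes were -0.01, -0.05 and -0.02. Over the same 9 factors, leaving out 1 library at a time gave medians for 6% ethanol against control between -0.45 (without control 2) and 0.49 (without control 1), and of -0.14 and -0.03 without 6% ethanol 2 and 3. For 10% ethanol against control they lay between 0.02 (without 10% ethanol 2) and 0.47 (without 10% ethanol 3), with 0.13 and 0.11 without control 2 and 3. For 10% against 6% ethanol they lay between 0.04 (without 10% ethanol 2) and 0.66 (without 6% ethanol 1). In long-header libraries alone the medians over these 9 were 0.42 for 6% and 0.89 for 10% ethanol against control, and in short-header libraries alone -0.60 and -0.61. The long-header fits rest on 1 library each at 6% ethanol and in controls, and the short-header fits on 1 library at 10% ethanol.

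For each factor at 10 CPM or more, the genes with the most similar profile were sought among 6842 other tested genes at that level, by the root mean square difference of log2(CPM + 1) after centring over the 9 libraries. Sall4 lay nearest to Slc49a4 (0.18 log2 units) and Dph6 (0.19), Pou5f1 to Psmb6 (0.18) and Ptdss2 (0.21), and Esrrb to Prmt9 (0.18) and Cnnm2 (0.28). Tfcp2l1 lay nearest to Hmga2 (0.21) and Ppm1b (0.23), and Zfp42 to Pgd (0.22) and Mrpl51 (0.27). Klf2 was nearest to Zmiz1 (0.34) and Nf2 (0.43), Klf4 to Tpd52l2 (0.38) and Nr1h2 (0.39), and Nanog to Ccdc43 and Cdc25c (0.48 each). Among the factors themselves Sall4 and Tfcp2l1 were the nearest pair (0.53), and Nanog and Esrrb the farthest (1.60). The difference is not scaled for spread, and Nanog, which varied most, was the farthest factor from Pou5f1, Klf4, Klf2, Esrrb, Zfp42 and Sall4. A nearest gene picked from 6842 candidates over 9 libraries does not show shared control, which was not tested.

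Genes that act with the factors were read from lists, which share some members. No gene of any list passed edgeR's test in any comparison. Over all tested genes, 49.5 percent lay above 0 for 6% ethanol and 47.1 percent for 10% ethanol against control, with medians of -0.01 and -0.05. Of 21 tested other pluripotency factors (25 listed), 16 lay above 0 for 6% ethanol and 15 for 10% ethanol against control, with medians of 0.30 and 0.24. Both doses share the control libraries. The 3 with the highest mean CPM were Dppa3, a maternal protein that protects methylation in the zygote, Klf5 and Rif1. Dppa3 had 2960 ± 1312 CPM at 6% ethanol, 1536 ± 310.5 at 10% ethanol and 1349 ± 786 CPM in controls, with log2 fold changes of 1.13 ± 0.50 and 0.19 ± 0.49 (adjusted p = 0.799 and 0.9999 by edgeR). Klf5, the KLF family member needed for the trophectoderm and the inner cell mass, had 912 ± 129 CPM at 6% ethanol, 857 ± 199 at 10% ethanol and 638 ± 168 CPM in controls. Rif1, a telomere and replication timing factor, had 717 ± 523 CPM at 6% ethanol, 407 ± 399.8 at 10% ethanol and 353 ± 58.7 CPM in controls.

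In LIF and STAT3 signalling, 4 of 9 tested genes lay above 0 for 6% ethanol and 6 of 9 for 10% ethanol against control. Stat3, the transcription factor that LIF activates, had 16.7 ± 2.81 CPM at 6% ethanol, 32.6 ± 8.0 at 10% ethanol and 29.0 ± 18.2 CPM in controls. The receptor kinase Jak1 had 140.3 ± 113, 74.9 ± 23.4 and 66.1 ± 13.3 CPM for 6% ethanol, 10% ethanol and control, and Pim3, a kinase induced by STAT3, 44.8 ± 40.1, 117 ± 24.7 and 80.2 ± 26.5 CPM. In the WNT and GSK3 pathway, 3 of 8 tested genes lay above 0 for each dose against control. Gsk3b, the kinase that marks beta-catenin for destruction, had 119 ± 41.0 CPM at 6% ethanol, 142 ± 35.3 at 10% ethanol and 195 ± 11.1 CPM in controls. Its ethanol libraries all lay below its controls at both doses, with log2 fold changes of -0.71 ± 0.45 and -0.45 ± 0.45 (adjusted p = 0.827 and 0.9999 by edgeR). Of all tested genes, 4.72 percent at 6% ethanol and 3.67 percent at 10% ethanol were lower than control without overlap. At 10% ethanol the margin for Gsk3b was narrow, 179 against 184 CPM, and both doses share the control libraries. Ctnnb1, which encodes beta-catenin, had 165 ± 83.2, 203 ± 58.5 and 157 ± 67.5 CPM for 6% ethanol, 10% ethanol and control, and Csnk1a1, a kinase of the same destruction complex, 529 ± 39.5, 459 ± 30.6 and 479.6 ± 155 CPM.

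Among 9 tested genes described as targets of OCT4 with SOX2, 5 lay above 0 for 6% ethanol and 4 for 10% ethanol against control. Fbxo15, an F-box gene used as a reporter of the pluripotent state, had 3315 ± 1202 CPM at 6% ethanol, 2537 ± 184 at 10% ethanol and 1930 ± 538 CPM in controls (log2 fold changes 0.78 ± 0.39 and 0.39 ± 0.39). Jarid2, a subunit of Polycomb complex PRC2, had 409 ± 84.9, 485 ± 48.3 and 656 ± 199.5 CPM, and Dppa4, a chromatin protein, 597 ± 459, 169 ± 56.1 and 254 ± 203 CPM for 6% ethanol, 10% ethanol and control. For 10% ethanol against control 2 of these 9 genes had an unadjusted p under 0.05 by edgeR, where 2.14 percent of all tested genes did. They were Fgf4 and Utf1, which were named after their values were seen and lay on opposite sides of 0. Of the other pluripotency factors, a list that also holds Utf1, 2 had such a p, and of the trophectoderm and primitive endoderm genes 1. Fgf4, a growth factor gene with a joined element in its enhancer, had 7.13, 15.0 and 118 CPM at 6% ethanol, 9.49, 7.88 and 13.2 CPM at 10% ethanol, and 92.4, 83.2 and 59.6 CPM in controls. Against control, Fgf4 had a fitted log2 fold change of -0.75 ± 0.87 at 6% ethanol and -2.95 ± 0.93 at 10% ethanol (adjusted p = 0.896 and 0.9999 by edgeR). Utf1, a chromatin factor of pluripotent cells, had 0.760, 1.14 and 14.6 CPM at 6% ethanol, 3.60, 64.9 and 0 CPM at 10% ethanol, and 0.325, 1.30 and 1.46 CPM in controls. For Utf1 the fitted values were 2.42 ± 1.81 and 4.47 ± 1.97 (adjusted p = 0.849 and 0.9999 by edgeR), and 10% ethanol 2 alone held the high level at that dose. Of 12 tested trophectoderm and primitive endoderm genes, 6 lay above 0 for 6% ethanol and 7 for 10% ethanol. Those with the highest mean CPM were Gata6, the primitive endoderm factor that opposes Nanog, with 1172 ± 263 CPM at 6% ethanol, 915 ± 331 at 10% ethanol and 856 ± 363 CPM in controls, and the trophectoderm factors Gata3 and Tfap2c. Gata3 had 151 ± 139, 256.4 ± 140.5 and 214.6 ± 172 CPM, and Tfap2c 115 ± 91.3, 265 ± 114 and 199 ± 93.4 CPM, for 6% ethanol, 10% ethanol and control.

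**Figure D5:**
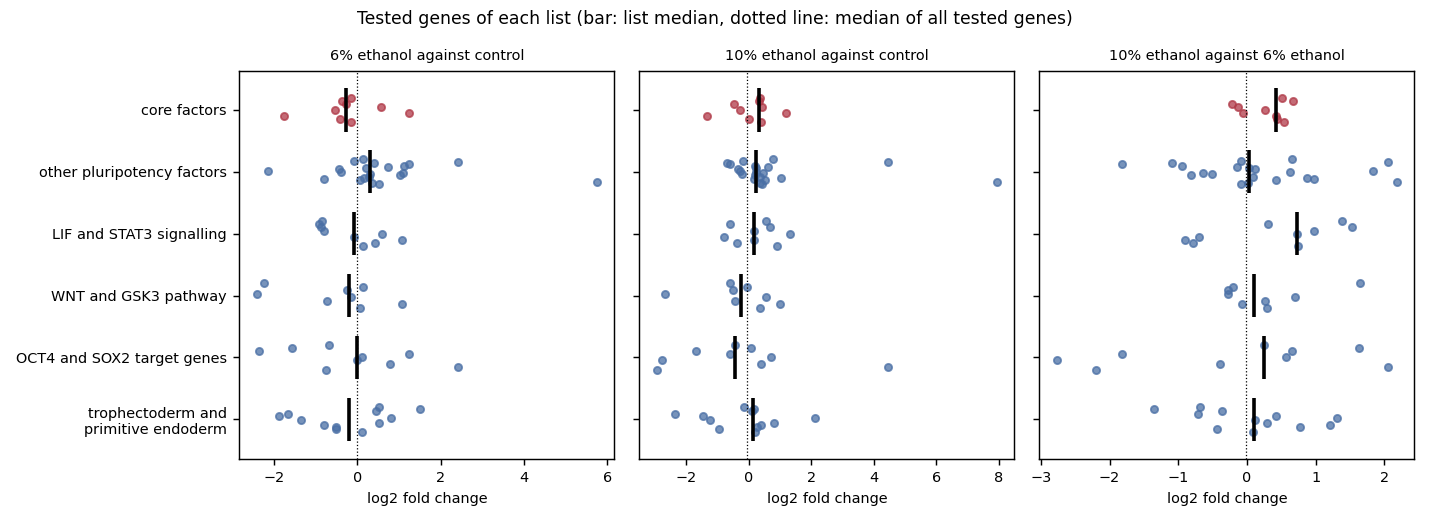
Fitted log2 fold changes of the tested genes of each list in the comparisons 6% ethanol against control, 10% ethanol against control and 10% against 6% ethanol, with the list median (bar) and the median of all tested genes (dotted line). The medians of the 9 tested core factors are -0.26, 0.32 and 0.43.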

How the data were processed

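RNA of 9 morula libraries, 3 each for 6% ethanol, 10% ethanol and control sires, was analysed from the gene tables the authors deposited, which hold raw counts for 1 library each, with featureCounts, DESeq2 and build GRCm39 named in the submitters' processing notes. Per the file headers, 4 columns come from RNA STAR alignments. Other aligners, versions, the annotation and the strand setting are not given in the sources used here, so counts of genes with copies or overlapping partners are uncertain.

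Of 53819 rows, 12488 passed edgeR's filterByExpr. A quasi-likelihood model of 3 groups was fitted to all 9 libraries with TMM scaling (R 4.3.3, edgeR 4.0.16), with Benjamini-Hochberg adjustment across those 12488 genes and a threshold of 0.05. DESeq2 1.42.0 and limma 3.58.1 were alternatives. The procedure was also run on simulated counts without a header-form difference. The changes set there were larger than any fitted for a factor with all libraries. That run therefore cannot say whether changes of the size seen here would be found. SE was taken from the fold change and its F statistic. Library sums over marker lists used full library totals. A count of 0 was read against 3 counts, which covers counting error only, as do the depths of 6263465 to 27619281 counts. Replicate numbers follow accession order and pair nothing.

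The factors and lists were chosen with earlier results of these data known. Named were the 10 factors, the 3 most abundant genes of each list, and for each factor at 10 CPM or more its 2 most similar genes; Fgf4 and Utf1 were added after their values were seen. Alternatives were other scalings, filters and tools, only the groups compared, header form as a term or taken apart, mitochondrially encoded genes left out, and each library left out.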

Additional observations from a re-analysis of the deposited data

How the results depend on the processing

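No factor passed under any alternative tried, so alternatives bear on direction and on counts over all genes. The number of genes called for 6% ethanol against control, 10% ethanol against control and 10% against 6% ethanol, 0 in each as reported, was 140, 47 and 147 with no filter on low counts, 62, 24 and 63 by DESeq2, 3, 9 and 4 in long-header libraries only, and 48, 2 and 1 in short-header libraries only. It was 0 under the other alternatives, leaving out each library included. With library size alone the median over all genes moved to -0.28, -0.18 and 0.13.

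Of the values of single factors under an alternative, 481 kept their sign and 56 changed it, none past the threshold; the cause was not tested. For 6% ethanol against control the changed log2 fold changes in long-header libraries were Nanog 2.05, Klf2 0.42, Esrrb -0.80, Tfcp2l1 0.81 and Sall4 0.83, that of Pou5f1 was 0.13 in short-header libraries, and that of Klf2 0.14 by limma voom. Leaving out libraries gave Nanog -1.91 to 0.51, Klf2 -1.48 to 0.63, Tfcp2l1 -0.56 to 0.32, Sall4 -0.43 to 0.49 and Pou5f1 -0.41 to 0.25. For 10% ethanol against control Nanog was -0.0095 with RLE factors, -0.12 with library size alone, -0.057 with the stricter filter, -1.26 with header form as a term, -2.45 in short-header libraries and -0.0066 by DESeq2. Klf2 was 0.50 with header form as a term, 1.58 in long-header libraries and 0.51 by limma voom. In long-header libraries Pou5f1 was -0.099, Esrrb -0.23 and Tfcp2l1 0.67, and in short-header libraries Zfp42 was -0.95 and Sall4 -0.084. Leaving out libraries gave Klf2 -0.72 to 0.91, Tfcp2l1 -0.77 to 0.12 and Nanog -0.73 to 0.96. For 10% against 6% ethanol Klf4 was 0.13 and Esrrb 0.076 with library size alone, and Klf4 was 0.069 with no filter, 0.27 with header form as a term and 0.36 by limma voom. Sox2 was -0.73 with header form as a term. In long-header libraries Nanog was -0.28, Sox2 -0.19, Klf4 0.96 and Esrrb 0.57, and in short-header libraries Nanog was -0.17, Sox2 -4.66 and Zfp42 -0.53. Leaving out libraries gave Klf4 -0.33 to 0.84, Klf2 -0.039 to 1.22, Nanog -0.31 to 1.94, Sox2 -0.12 to 2.09, Esrrb -0.40 to 0.27 and Tfcp2l1 -0.44 to 0.074. A group left with 1 library was assumed to vary like the others. Where Sox2 or Prdm14 had 0 counts, a level below the worth of 3 counts cannot be told from 0. That limit was 0.127 to 0.340 CPM, depending on the library.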
